A study of Danio rerio with 4 samples.

Results

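The genes described here encode the enzymes that oxidise and conjugate drugs, pollutants, steroids, bile acids and vitamins in zebrafish: the cytochromes P450 (cyp), the UDP-glucuronosyltransferases (ugt) and the sulfotransferases (sult). A gene was taken as a member when the RefSeq accession of its probe led to a symbol beginning with cyp, ugt or sult and a family number. This gave 105 genes among the 13366 named genes of the array, with 65 P450 genes, 24 ugt genes and 16 sult genes. They were read by 196 of 43569 probes, with 1 probe for 46 genes and several probes for 59. The rule uses the symbol and no measured value.

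RNA came from whole zebrafish embryos at 24 or 96 hours post fertilization (hpf), kept with no added copper (0 µM) or with 3.9 µM copper after fertilized eggs had been collected and staged. Each of the 4 combinations was read on 1 one-colour Agilent array. The labels name no strain, no transgene and no number of embryos per array. At 24 and at 96 hpf alike, the sample labels give one treatment to an array and its scanner file's name gives the other, and the authors' deposited table sides with the file names. The sample labels are followed here, so each copper difference is the array labelled copper against the array labelled control, and every such direction turns if the file names are right. The fitted age differences keep their values either way, while the age differences within control and within copper arrays change places.

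P450 enzymes insert an oxygen atom into fat-soluble compounds, using electrons passed on from NADPH by a reductase or a ferredoxin. UDP-glucuronosyltransferases and sulfotransferases then attach glucuronic acid or sulfate, which makes the product easier to excrete, mainly in liver and intestine. Other P450 enzymes build steroid hormones in gonad and interrenal gland, form bile acids from cholesterol, or break down retinoic acid and vitamin D, which sets the local level of these signals in the embryo.

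The arrays were of similar reach, with 33531 to 36468 probes well above background, or 76.9% to 83.6% of those read. Before normalization, 3 arrays had a median intensity of 161.7 to 193.6, and the array labelled copper at 24 hpf had 364.6. No spot was saturated, and a batch difference between the arrays was not tested. For 50 probes with several spots, the median SD (log2) between spots of an array was 0.060 to 0.119, a measure of printing and scanning error alone. Because each group held 1 array, a copper difference has no replicate check and no p-value, and precision is limited by the small number of arrays. A signal below is the quantile-normalized intensity of the gene's brightest detected probe, in arbitrary units, and 4 signals in a row stand in the order control and copper at 24 hpf, then control and copper at 96 hpf. In whole embryos, fewer cells of a type and less RNA per cell cannot be told apart.

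Of the 105 members, 97 had a probe well above background on at least 2 of the 4 arrays and were compared. The other 8 were the steroid P450 gene cyp17a2, cyp2u1, sult1st2, ugt1b3, ugt5a2, ugt5c2, ugt5f1 and ugt5g2. Among them, ugt5a2 and sult1st2 were well above background on a single array, that labelled copper at 96 hpf. Signals of ugt5a2 were 4.04, 3.96, 13.5 and 177, and those of sult1st2 were 7.24, 5.65, 9.77 and 55.5. Against the control array at 96 hpf they were at least 10.5-fold and at least 3.29-fold higher.

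At 96 hpf the enzyme genes were higher in the array labelled copper far more often than lower. At least 2-fold higher signals were seen for 38 of the 97 compared members (39.2%), where 5.51% of 12138 named genes were this much higher. No member was 2-fold lower, where 1.67% of named genes were. The median difference was 0.64 on the log2 scale over the members and -0.05 over all named genes, and 80 of 97 members lay above 0. Of the 38 genes, 19 had several probes that could be compared, all 19 had every probe on the higher side, and 12 had every probe past 2-fold. Under each of 3 normalizations (quantile, 75th percentile and normexp), 28 of the 38 stayed past 2-fold. Counted by probe, 63 of 168 member probes were 2-fold higher and 0 were 2-fold lower. No share over all probes is given here for comparison. The probes read the same pair of arrays, so this count adds no separate support to the count of genes.

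The same count did not hold for every class. Past 2-fold were 17 of 36 xenobiotic P450 genes (families 1, 2 and 3), 9 of 18 ugt genes of families 1, 2 and 5, 3 of 5 fatty acid and other P450 genes, and 6 of 12 sterol and bile acid P450 genes. Against these stood 1 of 6 genes of the phenol sulfotransferase family 1, 0 of 3 of the steroid sulfotransferase family 2, 1 of 6 of the remaining sulfotransferases, 0 of 5 steroid P450 genes and 1 of 5 retinoid and vitamin D P450 genes. Over all named genes, 5.51% were 2-fold higher at this age. With 0 or 1 gene past 2-fold, classes of 3 to 6 genes cannot be told apart from that share. Median differences were 0.96 for the xenobiotic P450 genes, 0.80 for the ugt genes, -0.01 for the steroid P450 genes and 0.02 for sulfotransferase family 1. These counts rest on the brightest probe. Another detected probe was past 2-fold for sult1st3 (3.85 on the log2 scale) and sult2st2 (1.39). The same held for cyp7a1, cyp2aa12 and cyp2x10.2 in the P450 classes. Left out by the filter were sult1st2 and ugt5a2, with bounds of 1.72 and 3.39 higher. No test separated the classes, because each value rests on the same pair of arrays.

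**Figure D1:**
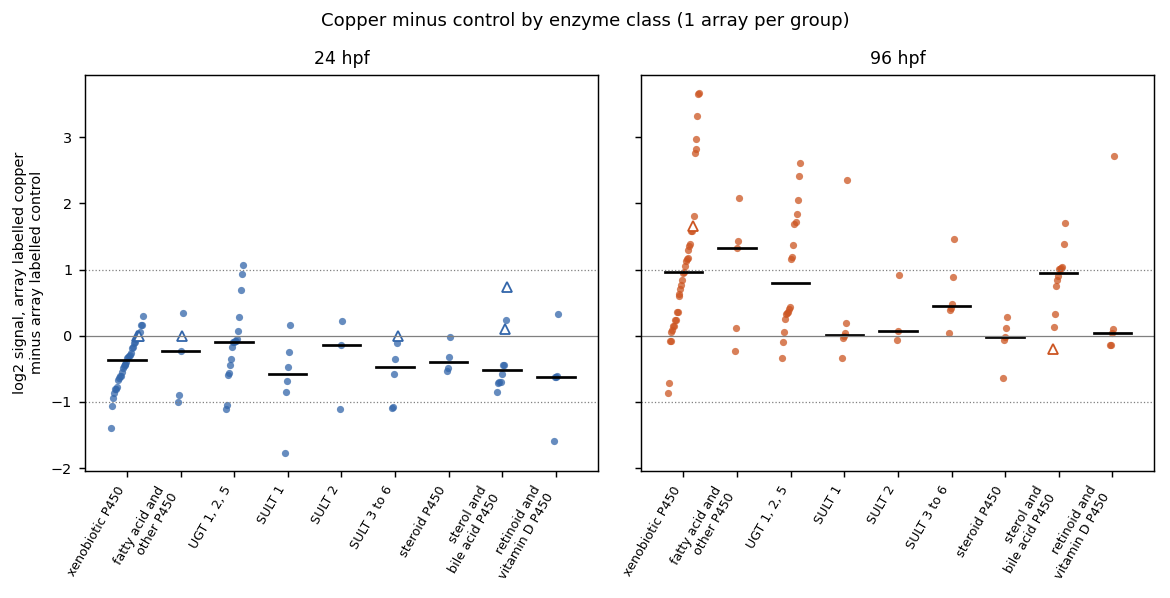
Log2 difference, copper minus control as labelled, of each compared member at 24 hpf (left) and 96 hpf (right), by class, without ugt8. Points are genes, open triangles are bounds for genes well above background on 1 array, black lines are class medians and dotted lines mark 2-fold. At 96 hpf the xenobiotic P450, fatty acid P450, ugt and sterol classes sit mostly above 0, and the steroid P450 genes sit around 0.

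At 24 hpf few members were far apart between the arrays, and most differences ran the other way. Only 1 of 91 compared members (1.1%) reached 2-fold above its control, where 3.09% of 12110 named genes were. At least 2-fold lower were 10 members (11%), where 5.86% of named genes were. Of the 10, 5 had several probes that could be compared. Among these 5, 3 had every probe on the lower side and 0 had every probe past 2-fold. The median difference was -0.35 on the log2 scale over the members and -0.26 over all named genes, so the members lay close to the other genes. The median over all compared probes at this age was -0.12 under quantile normalization, 0.03 with 75th-percentile scaling and -0.07 with normexp correction. The median over named genes changed less, at -0.26, -0.27 and -0.21 in the same order. The count depended on the scaling. Scaling by the 75th percentile gave 3 lower and 3 higher members, and normexp background correction gave 3 lower and 0 higher. Under all 3 normalizations, 2 members remained 2-fold lower, cyp1a and cyp24a1.

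**Figure D2:**
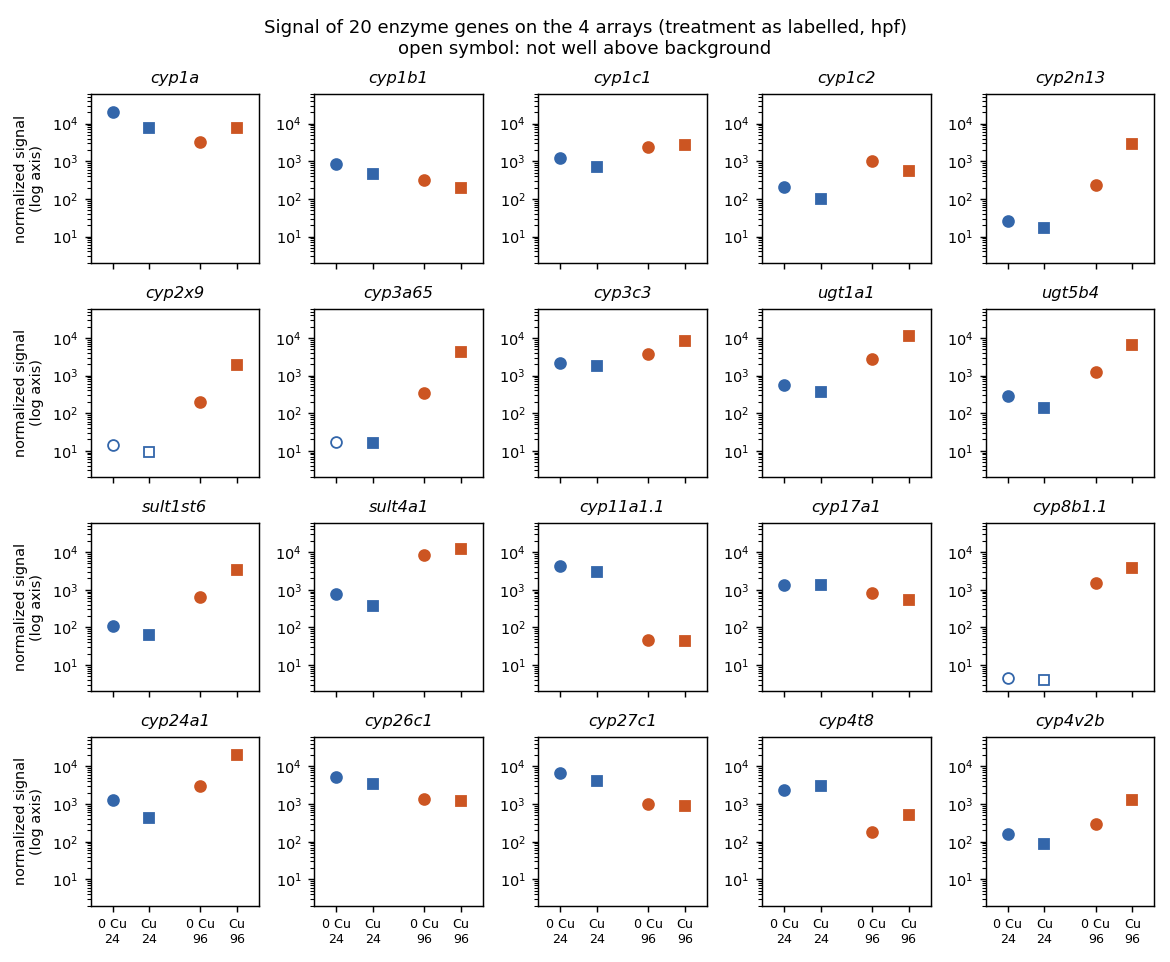
Normalized signal (log axis) of 20 enzyme genes on each of the 4 arrays, with treatment as labelled and age in hpf. Circles are control arrays, squares are arrays labelled copper, and open symbols were not well above background. For cyp2n13, cyp2x9 and cyp3a65 the 96 hpf array labelled copper is the highest of the 4, and cyp11a1.1 is high on both 24 hpf arrays and low on both 96 hpf arrays.

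With age, both directions were represented. Between 24 and 96 hpf, 38 of 97 members rose (39.2%), where 17.3% of 12332 named genes rose, and 9 fell (9.28%), where 15.1% of named genes fell (limma with Benjamini-Hochberg adjustment over all 36026 probes, adjusted p under 0.05). The fit has 1 residual degree of freedom per probe, which holds how far the copper difference at 24 hpf departs from that at 96 hpf and is no spread between replicates. The median difference between the ages was 0.58 on the log2 scale between the control arrays and 1.51 between the arrays labelled copper, and 62 and 81 members lay above 0. The count of members that rose was 14 without the 24 hpf array labelled copper, 23 without the 96 hpf array labelled copper, and 30 and 40 without the control arrays of 24 and 96 hpf, in fits of age alone in which the lone array of an age is assumed to vary like the pair at the other age. The count that fell was 7 to 9 in the same fits. For 5 of the genes that rose, cyp2ad2, cyp2k18, cyp3a65, cyp4v2a and sult3st5, the 24 hpf control array was not well above background, and each increase is then a bound given with the gene. Another 6, cyp19a1b, cyp2k19, cyp2x9, cyp8b1.1, cyp8b1.2 and ugt5a1, were well above background at 96 hpf alone. They passed the filter only through the age at which they were higher, so their entry favoured an increase. No member entered through the 24 hpf arrays alone. The remaining 32 that rose, the 5 included, were well above background on at least 1 array of each age. The same filter was used for the named genes. Of the 50 members not called on their brightest probe, 9 had another probe past the threshold: cyp2aa12, cyp46a1.2, cyp46a1.3, cyp7a1, sult1st3 and sult2st2 with one that rose, and cyp17a1, cyp1a and cyp26a1 with one that fell. The probes that rose for cyp46a1.3, cyp7a1 and sult1st3 were well above background at 96 hpf alone. Their entry through the filter therefore also favoured an increase. Of the 47 calls, 11 of those that rose and 6 of those that fell held in every alternative they entered. These were cyp19a1b, cyp2ad3, cyp2k18, cyp4v2a, cyp8b1.1, cyp8b1.2, sult3st5, sult4a1, sult5a1, ugt2a3 and ugt5d1 among those that rose, and cyp11a1.1, cyp26c1, cyp27c1, cyp2aa4, cyp2aa9 and cyp4t8 among those that fell. Of these, cyp19a1b, cyp2k18, cyp4v2a, cyp8b1.1, cyp8b1.2 and sult3st5 did not enter the alternative of detection on all 4 arrays. They were not well above background on at least 1 of the 24 hpf arrays, so that alternative could not check them.

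**Figure D3:**
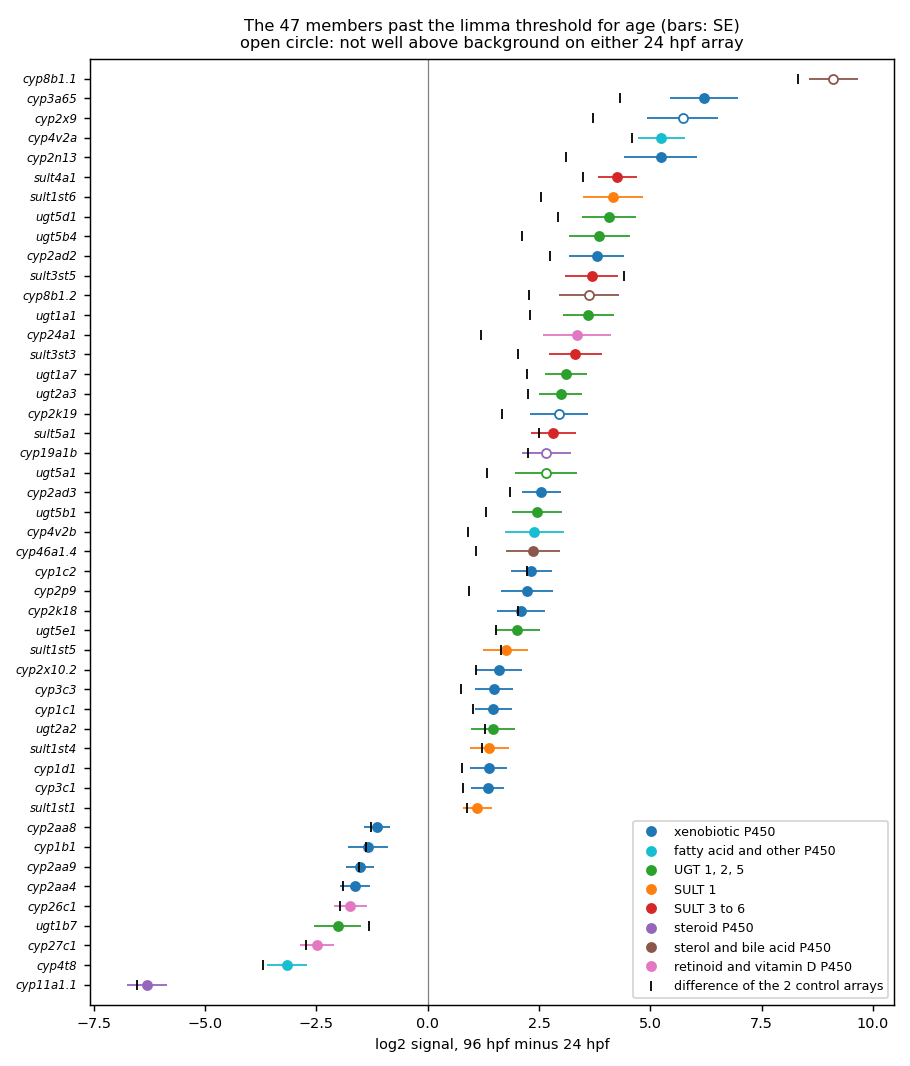
Log2 difference of 96 hpf minus 24 hpf for the 47 members past the limma threshold, ordered by size and coloured by class. Circles are the fitted difference, bars its SE, black ticks the difference between the control arrays alone, and open circles genes that neither 24 hpf array had well above background. The bile acid gene cyp8b1.1 lies farthest to the right and the steroid gene cyp11a1.1 farthest to the left.

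The cyp1 genes encode the enzymes that oxidise polycyclic aromatic compounds, and several are induced through the aryl hydrocarbon receptor. Signals of cyp1a were 19743, 7505, 3299 and 7478. Its control array was the higher at 24 hpf, by 2.63-fold, and the array labelled copper was the higher at 96 hpf, by 2.27-fold. All 3 cyp1a probes were lower at 24 hpf, from -1.40 to -0.24 on the log2 scale, and all 3 were higher at 96 hpf, from 1.02 to 1.18. Its brightest probe is placed by the authors' deposited table on chromosome 18 from 4985480 to 4985539 (Zv9). Between the control arrays cyp1a differed by -2.58 with age and between the arrays labelled copper by -0.01, and the fitted age difference of -1.29 did not pass (limma adjusted p = 0.078). The other 2 probes fell with age, with differences of -1.53 and -1.45 (limma adjusted p = 0.036 and 0.043).

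Among the other cyp1 genes, none passed 2-fold at 96 hpf. Signals of cyp1b1 were 826, 471, 316 and 193, those of cyp1c2 were 210.2, 100.4, 985 and 540.3, and both genes were lower in the array labelled copper at both ages. At 24 hpf cyp1c2 was 2.09-fold lower and cyp1b1 1.75-fold lower. Signals of cyp1c1 were 1217, 715, 2458 and 2724. Signals of cyp1d1 were 1410.1, 960.3, 2402 and 3736. Both were lower at 24 hpf and higher at 96 hpf in the array labelled copper, by less than 2-fold on the brightest probe. For cyp1b1, cyp1c1 and cyp1c2 the probes of 1 gene lay on both sides of 0 at 24 hpf. Another cyp1c1 probe was 1.01 higher on the log2 scale at that age, past 2-fold on the opposite side to the brightest probe. With age, cyp1c2 rose by 2.33 on the log2 scale (SE 0.45, limma adjusted p = 0.0039), cyp1c1 rose by 1.47 and cyp1d1 by 1.36, and cyp1b1 fell by 1.34.

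Among the cyp2 genes, 13 of the 27 compared at 96 hpf were 2-fold higher and 0 were 2-fold lower. Of named genes, 5.51% and 1.67% were. Under quantile normalization, differences of over 7-fold were seen in cyp2x9 and in 3 members of the teleost cyp2n, cyp2ad and cyp2p subfamilies. These subfamilies are relatives of the mammalian CYP2J epoxygenases that oxidise arachidonic acid. The size depended on the processing. With normexp correction the log2 differences were 3.32 for cyp2n13, 2.91 for cyp2x9, 2.03 for cyp2ad2 and 1.37 for cyp2p7. Under quantile normalization they were 3.65, 3.32, 2.97 and 2.82. Signals of cyp2n13 were 26.5, 17.3, 227 and 2847. The 96 hpf array labelled copper stood 12.5-fold above its control, and both comparable probes showed the difference, from 3.65 to 3.81 on the log2 scale. Signals of cyp2ad2 were 8.03, 14.7, 53.7 and 420.2, the first of them not well above background. The difference at 96 hpf was 7.83-fold, while at 24 hpf both arrays were near background.

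The related cyp2ad3 and cyp2ad6 showed smaller differences on the same side. Signals of cyp2ad3 were 884, 721, 3158 and 6945, a 2.2-fold difference at 96 hpf. Signals of cyp2ad6 were 33.2, 32.2, 35.3 and 92.1, a 2.61-fold difference. The 5 cyp2p genes had a common direction at 96 hpf, although cyp2p10 at 1.93-fold did not pass 2-fold.
Signals of cyp2p7 were 69.5, 50.8, 24 and 169.6, 7.06-fold higher at 96 hpf. Signals of cyp2p9 were 474, 272, 896 and 3146, 3.51-fold higher. Signals of cyp2p8 were 799.9, 417, 457 and 1362, and those of cyp2p6 were 241, 172, 248 and 609. On the brightest probe of each of these 4 genes the 24 hpf array labelled copper was lower than its control by less than 2-fold. On the same probes the 96 hpf array labelled copper was the highest of the 4 arrays. At 24 hpf the other probes of cyp2p9, cyp2p7 and cyp2p6 differed by 0.66, 0.05 and -0.39 on the log2 scale. The authors' deposited table places 12 probes of 8 genes of these subfamilies within 69405 bases on chromosome 20, from 25545032 to 25614436 (Zv9). The 2 probes of cyp2p6 start 1 base apart, so they are not separate measurements. Neighbouring copies can share sequence, and whether a probe also binds a copy was not tested.

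The fish-specific cyp2x, cyp2k, cyp2aa and cyp2y genes were less uniform. Signals of cyp2x9 were 14.7, 9.03, 192 and 1917, neither 24 hpf value being well above background, and the difference at 96 hpf was 9.96-fold. Signals of cyp2x8 were 749, 780.3, 525 and 1579, 3.01-fold higher at 96 hpf and level at 24 hpf. Both genes lie close together in the authors' deposited table, on chromosome 25, from 17745466 to 17753667 (Zv9). Signals of cyp2k19 were 22.1, 9.73, 70.6 and 180.5, the first 2 not well above background, and those of cyp2k6 were 34.9, 22.8, 11.2 and 53.4, the third not well above background. Of the 5 cyp2k genes, cyp2k19 was 2.56-fold higher, and cyp2k6 was at least 3.16-fold higher because its control array was not well above background. Signals of cyp2k18 were 11.8, 13, 48.2 and 57.1, the first not well above background, with no difference past 2-fold, and cyp2k16 and cyp2k17 differed by 1.95-fold and 1.04-fold. The values of cyp2k19 and cyp2k6, like those of cyp2ad6 and cyp2aa1, were not past 2-fold under all 3 normalizations. The genes cyp2v1 and cyp2x10.2 differed by 1.28-fold and 1.51-fold at 96 hpf.

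Of the 8 cyp2aa genes, 1 passed 2-fold at 96 hpf, cyp2aa1 at 2.08-fold. Its signals were 864, 641, 526 and 1095, with the 24 hpf control between the 96 hpf arrays. With age 3 of the 8 cyp2aa genes fell, where 15.1% of named genes fell. Signals of cyp2aa4 were 9939, 7553, 2661 and 2954, those of cyp2aa8 were 14849, 13092, 6127 and 6521, and those of cyp2aa9 were 11191, 10399, 3847 and 3634. In all 3 genes both 24 hpf arrays were above both 96 hpf arrays, and they fell with age, with log2 differences of -1.63, -1.14 and -1.53 (limma adjusted p = 0.0056, 0.016 and 0.0052). The remaining 5 cyp2aa genes were not called on their brightest probe, although 3 of the 5 detected cyp2aa12 probes rose with age, by 1.21 to 1.44 (limma adjusted p = 0.02 to 0.044). Signals of cyp2y3 were 6829, 6406, 5226 and 9408, a 1.8-fold difference at 96 hpf that did not pass 2-fold.

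With age, 8 of the 27 cyp2 genes rose, where 17.3% of named genes rose. The largest increases were in cyp2x9, by 5.72 on the log2 scale (SE 0.8, limma adjusted p = 0.0006; at least 38.9-fold), and cyp2n13, by 5.23 (SE 0.82, limma adjusted p = 0.0012). Both increases were smaller between the control arrays, at 3.71 and 3.1, than between the arrays labelled copper, at 7.73 and 7.36. Also up were cyp2ad2 by 3.79 (at least 8.61-fold), cyp2k19 by 2.94 (at least 7.0-fold), cyp2ad3 by 2.55, cyp2p9 by 2.23, cyp2k18 by 2.08 (at least 3.2-fold) and cyp2x10.2 by 1.6.

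The cyp3 genes encode the P450 enzymes of widest drug range, and cyp3a65 is the zebrafish cyp3a gene of liver and intestine. Signals of cyp3a65 were 17, 15.9, 339.8 and 4335, the first not well above background. Its 96 hpf array labelled copper stood 12.8-fold above the control, the largest copper difference among the brightest probes of the members, with its comparable probes from 3.14 to 3.67 on the log2 scale. Its brightest probe lies, in the authors' deposited table, on chromosome 1 from 60218456 to 60218515 (Zv9). With age cyp3a65 rose by 6.21 (SE 0.76, limma adjusted p = 0.00027; at least 66.8-fold).
The cyp3c genes belong to a cyp3 subfamily of fish. Signals of cyp3c4 were 58.8, 32.3, 53.2 and 361, 6.78-fold higher at 96 hpf in the array labelled copper and between 32.3 and 58.8 on the other 3 arrays. This log2 difference of 2.76 was 1.88 with normexp correction. Signals of cyp3c3 were 2209.8, 1772, 3704 and 8313, a 2.24-fold difference at 96 hpf. Signals of cyp3c1 were 3593, 2859, 6239.7 and 10662, a 1.71-fold difference that did not pass 2-fold. With age cyp3c3 rose by 1.49 and cyp3c1 by 1.35, and cyp3c4 did not pass at 1.67 (limma adjusted p = 0.122). For cyp3c3 and cyp3c1, 1 of 3 probes passed. The other cyp3c3 probes differed by -0.16 and 1.24, and the other cyp3c1 probes by 1.14 and 0.94.

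The cyp4 genes encode fatty acid hydroxylases that act at the far end of the chain. Signals of cyp4v2b were 160, 86.2, 299.7 and 1274, and the 96 hpf array labelled copper was 4.25-fold above its control. Signals of cyp4v2a were 18.7, 19.1, 453 and 1133, the first not well above background, with a 2.5-fold difference at 96 hpf. Both genes are counterparts of human CYP4V2, in which mutations cause a retinal dystrophy. With age cyp4v2a rose by 5.24 (SE 0.53, limma adjusted p = 8.3e-05; at least 36-fold) and cyp4v2b by 2.4. Signals of cyp4t8 were 2429.9, 3095, 186 and 501. Both 24 hpf arrays were above both 96 hpf arrays, cyp4t8 fell with age (-3.17 on the log2 scale, SE 0.45, limma adjusted p = 0.00063), and it was 2.69-fold higher in the array labelled copper at 96 hpf. Signals of cyp4f3, whose human counterpart inactivates leukotriene B4, were 306, 153, 423 and 461, and its 2.01-fold difference at 24 hpf was under 2-fold with both other normalizations. The orphan P450 gene cyp20a1 stayed under 2-fold at both ages and was not called with age.

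The ugt genes of families 1, 2 and 5 add glucuronic acid, and 9 of the 18 that passed were 2-fold higher at 96 hpf in the array labelled copper. Of named genes, 5.51% were. Family 1 holds the counterpart of the human enzyme that conjugates bilirubin. Signals of ugt1a1 were 546, 369, 2694 and 11162, and those of ugt1a7 were 811, 759, 3774 and 12122. The 96 hpf differences were 4.14-fold and 3.21-fold, the array labelled copper being the highest of the 4 in both. In the authors' deposited table the 2 listed ugt1a probes lie within 224 bases on chromosome 9, from 10194894 to 10195117 (Zv9). The ugt1a genes share their final exons, so the 2 symbols may stand for 1 signal. The ugt1b genes differed from these. Signals of ugt1b7 were 204, 427, 81.6 and 64.3, the only member 2-fold higher at 24 hpf, at 2.1-fold, and those of ugt1b5 were 3041, 4918, 2193 and 2057. For ugt1b7 the 24 hpf excess was above 2-fold under quantile normalization and not under all 3 normalizations.

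Family 2 had 1 member past 2-fold. Signals of ugt2a3 were 302, 284, 1440.4 and 3714, a 2.58-fold difference at 96 hpf with level arrays at 24 hpf. The genes ugt2a2, ugt2a5 and ugt2b6 differed by 1.25-fold, 1.04-fold and 1.19-fold.

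Family 5, which fish have and mammals lack, held 6 of the 9 ugt genes past 2-fold. Signals of ugt5a4 were 24.7, 47.2, 26.1 and 159.8, 6.12-fold higher at 96 hpf. Signals of ugt5b4 were 287, 139, 1250.4 and 6637, 2.07-fold lower at 24 hpf and 5.31-fold higher at 96 hpf. Signals of ugt5b1 were 270.4, 198, 668 and 2380.1, 3.56-fold higher at 96 hpf. In the authors' deposited table ugt5b1 and ugt5b4 lie together on chromosome 1, from 8707128 to 8721509 (Zv9).
Smaller values were seen for the other 3. Signals of ugt5d1 were 37, 17.1, 282 and 632, 2.16-fold lower at 24 hpf and 2.24-fold higher at 96 hpf. Signals of ugt5a1 were 6.67, 3.6, 16.9 and 55.7, the first 2 not well above background. The 96 hpf signals of ugt5c3 were 106 in the control array and 241 in the array labelled copper. It was 2.28-fold higher at 96 hpf on this brightest probe, and neither it nor ugt5a1 was past 2-fold under all 3 normalizations. The other ugt5c3 probes were 0.45 and 0.46 higher on the log2 scale at 96 hpf. The 4 other family 5 genes that passed, ugt5b6, ugt5c1, ugt5e1 and ugt5g1, were 1.26-fold to 1.35-fold higher at 96 hpf. Signals of ugt8, which puts galactose on ceramide in myelin-forming cells, were 1279, 1029, 2007 and 2924, with no difference past 2-fold on this brightest probe, and the other ugt8 probe was at a bound of 1.00 (log2) higher at 24 hpf.

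With age 9 of the 18 ugt genes of families 1, 2 and 5 rose, where 17.3% of named genes rose. Among the same 18, ugt1b7 fell (-2.03 on the log2 scale, SE 0.53, limma adjusted p = 0.016), where 15.1% of named genes fell. The increases were 4.07 for ugt5d1, 3.85 for ugt5b4, 3.61 for ugt1a1, 3.11 for ugt1a7, 2.98 for ugt2a3, 2.65 for ugt5a1 (at least 1.97-fold), 2.45 for ugt5b1, 2.01 for ugt5e1 and 1.47 for ugt2a2, all on the log2 scale. For ugt5d1 the limma adjusted p was 0.00086 and the SE 0.61.

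Of the 15 sulfotransferase genes compared, 2 were 2-fold higher and 0 were 2-fold lower at 96 hpf. Of named genes, 5.51% and 1.67% were. Family 1, which sulfates phenols including thyroid hormones and estrogens, had a single gene past 2-fold at 96 hpf on the brightest probes. Signals of sult1st6 were 112, 62, 659 and 3371, the array labelled copper at 96 hpf being 5.12-fold above its control. Signals of sult1st1 were 4502, 3243, 8282 and 8234, those of sult1st3 were 762, 857, 1431 and 1471, and the 96 hpf arrays were level in both on these probes. The other detected sult1st3 probe was 3.85 higher on the log2 scale at 96 hpf in the array labelled copper, at 1297 against 90.2. Signals of sult1st7 were 52.8, 15.5, 53.2 and 61, and its 24 hpf difference of -1.77 on the log2 scale was -0.49 under normexp background correction. With age sult1st6 rose by 4.16 (SE 0.68, limma adjusted p = 0.0014), and sult1st5, sult1st4 and sult1st1 rose by 1.75, 1.38 and 1.11. For sult1st4 and sult1st1 the brightest probe alone passed. The other sult1st4 probes differed by 1.12 and 0.79, and the other sult1st1 probe by 0.60.

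Family 2, which sulfates hydroxysteroids, had no gene past 2-fold at 96 hpf and none called with age on the brightest probes. Signals of sult2st1 were 7882, 7155, 7845 and 7537. Signals of sult2st2 were 4174, 4858, 5524 and 10454, a 1.89-fold difference at 96 hpf. The other sult2st2 probe was 1.39 higher on the log2 scale at 96 hpf and rose with age by 1.57 (limma adjusted p = 0.016). Signals of sult2st3 were 827, 384, 1069 and 1129, with a brightest probe 2.16-fold lower at 24 hpf and another that was level. Among the remaining sulfotransferases, sult4a1 is the brain form with no settled substrate. Signals of sult4a1 were 761, 361, 8478 and 11881. It was 2.11-fold lower at 24 hpf in the array labelled copper, both 96 hpf arrays were above both 24 hpf arrays, and it rose with age by 4.26 (SE 0.44, limma adjusted p = 0.0001). Signals of sult3st3 were 229, 108, 937 and 2585, with a 2.76-fold difference at 96 hpf opposite to the 2.13-fold difference at 24 hpf. The other sult3st3 probe was 1.95 higher on the log2 scale at 96 hpf and had a bound of 0 at 24 hpf. Signals of sult6b1 were 11414, 10555, 9811 and 13067, all within 2-fold of each other. The gene sult3st2 was 1.85-fold higher at 96 hpf. With age sult3st3 and sult5a1 rose by 3.31 and 2.82. The gene sult3st5 rose by 3.68 (at least 5.33-fold), its 24 hpf control array being not well above background.

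The steroid P450 genes showed no difference past 2-fold between treatments at either age. The first step of all steroid hormones, the cleavage of the cholesterol side chain, is made by the cyp11a1 enzymes. Signals of cyp11a1.1 were 4202, 2989, 45.5 and 43.6, with both 24 hpf arrays far above both 96 hpf arrays. It fell with age (-6.32 on the log2 scale, SE 0.45, limma adjusted p = 9.7e-06), the largest decrease among the brightest probes of the members, with -6.53 between the control arrays and -6.1 between the arrays labelled copper. The other cyp11a1.1 probe, at 278, 272, 38.9 and 33.3, differed by -2.93 with age (limma adjusted p = 0.0017). Signals of cyp17a1, which makes androgen precursors and cortisol precursors, were 1338, 1325, 836 and 539. It was 1.55-fold lower at 96 hpf and was not called with age (limma adjusted p = 0.105). Signals of cyp11c1, the 11-beta-hydroxylase gene of cortisol synthesis, were 76.7, 61.7, 115 and 124.
The aromatase genes, which turn androgens into estrogens, had signals of at most 84.8 on their brightest probes. Signals of the gonadal cyp19a1a were 35.3, 24.5, 37.1 and 45.2. Signals of the brain form cyp19a1b, which radial glia express, were 17.8, 9.97, 84.8 and 84, the first 2 not well above background. It rose with age by 2.66 (SE 0.54, limma adjusted p = 0.0049; at least 5.41-fold), on the 1 detected probe of its 5. The cyp21a2 gene was not analysed here.

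The sterol and bile acid P450 genes were led at 96 hpf by cyp46a1, the brain enzyme that turns cholesterol into 24-hydroxycholesterol. All 5 cyp46a1 genes were higher in the array labelled copper, from 1.01 to 1.71 on the log2 scale. Signals of cyp46a1.4 were 175, 97.4, 372 and 1215, and it was the only one past 2-fold under all 3 normalizations. These 5 genes have 8 probes in the authors' deposited table, on chromosome 20 from 5153517 to 5312714 (Zv9). Signals of cyp46a1.1 were 378, 278, 575 and 1162, those of cyp46a1.2 were 342, 229, 528 and 1079, those of cyp46a1.3 were 361, 222, 176 and 363, and those of cyp46a1.5 were 91, 108, 148 and 298. These 4 genes were 2.02-fold, 2.04-fold, 2.06-fold and 2.01-fold higher, just over 2-fold, and whether their probes bind each other's transcripts was not tested.
Signals of cyp8b1.1, the 12-alpha-hydroxylase gene of bile acid synthesis, were 4.66, 4.03, 1477 and 3881. The first 2 were not well above background, and the 96 hpf array labelled copper was 2.63-fold above its control. With age cyp8b1.1 rose by 9.11 (SE 0.55, limma adjusted p = 3.2e-06; at least 153-fold), the largest increase of any member. The authors' deposited table puts its probe on chromosome 2 from 3930444 to 3930503 (Zv9). Also up with age were cyp8b1.2 by 3.62 (at least 6.26-fold) and cyp46a1.4 by 2.36. Signals of cyp7a1, the rate-limiting enzyme of bile acid synthesis, were 308, 189.6, 188 and 335, and those of cyp51, the lanosterol demethylase of cholesterol synthesis, were 864, 529, 629.8 and 691. Neither passed 2-fold on its brightest probe nor the age threshold. Another cyp7a1 probe had signals of 4.65, 3.98, 193 and 2464, and was not well above background on either array at 24 hpf. The lowest signals well above background on those arrays were 20.8 and 11.7. Its fitted age difference of 7.33 (limma adjusted p = 0.00013) is thus not a bound. It passed the filter only through the 96 hpf arrays, so its entry favoured an increase. The third probe differed by -1.49 and was not called, so the age result of cyp7a1 depends on the probe. At 96 hpf these other probes were 3.67 and 1.17 higher on the log2 scale in the array labelled copper. The genes cyp27a3, cyp39a1 and cyp8b1.3 had no signal above 69.6 on any array, and none of them was called.

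The retinoid and vitamin D genes were split. Signals of cyp24a1, the enzyme that degrades active vitamin D, were 1294, 432, 2973 and 19623. It was 3.0-fold lower in the array labelled copper at 24 hpf and 6.6-fold higher at 96 hpf, on 2 of 2 probes at each age. The second probe differed by -0.66 and 2.94 on the log2 scale, so at 24 hpf it did not pass 2-fold. The authors' deposited table puts its brightest probe on chromosome 6 from 55705600 to 55705659 (Zv9). With age cyp24a1 rose by 3.35 (SE 0.77, limma adjusted p = 0.0089), by 1.2 between the control arrays and 5.51 between the arrays labelled copper.
The cyp26 enzymes clear retinoic acid and bound the regions where it acts. Signals of cyp26a1 were 6111, 7678, 4709.7 and 5059.7. Signals of cyp26b1 were 5158, 3389, 4687 and 4818. Signals of cyp26c1 were 5245, 3400.2, 1329 and 1204. None was past 2-fold between treatments at either age, and cyp26c1 fell with age (-1.74 on the log2 scale, SE 0.38, limma adjusted p = 0.0068). Signals of cyp27c1, which in zebrafish turns vitamin A1 into A2, were 6541, 4229.5, 987 and 899. Both 24 hpf arrays were above both 96 hpf arrays, and it fell with age (-2.48 on the log2 scale, SE 0.38, limma adjusted p = 0.001). The genes cyp27b1 and cyp2r1, which activate vitamin D, were not analysed here.

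Probes of 1 gene did not always give 1 answer. At 24 hpf, 10 of 40 members with several comparable probes (25%) had probes at least 2-fold apart in their copper difference, against 28.9% of 6710 named genes, and 27 of the 40 (67.5%) had probes on both sides of 0, against 50.1% of named genes. At 96 hpf this was so for 4 of 48 members (8.33%), against 2.71% of 6601 named genes, and 7 of the 48 (14.6%) had probes on both sides of 0, against 23.4%. The 4 were cyp2aa12, cyp3c3, cyp7a1 and sult1st3. For sult1st3 the brightest probe differed by 0.04 on the log2 scale and the other by 3.85, for cyp2aa12 the brightest of 5 differed by 0.23 and the highest by 2.79, and for cyp7a1 the brightest of 3 differed by 0.84 and the highest by 3.67. The values of these genes therefore depend on the probe chosen.

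**Figure D4:**
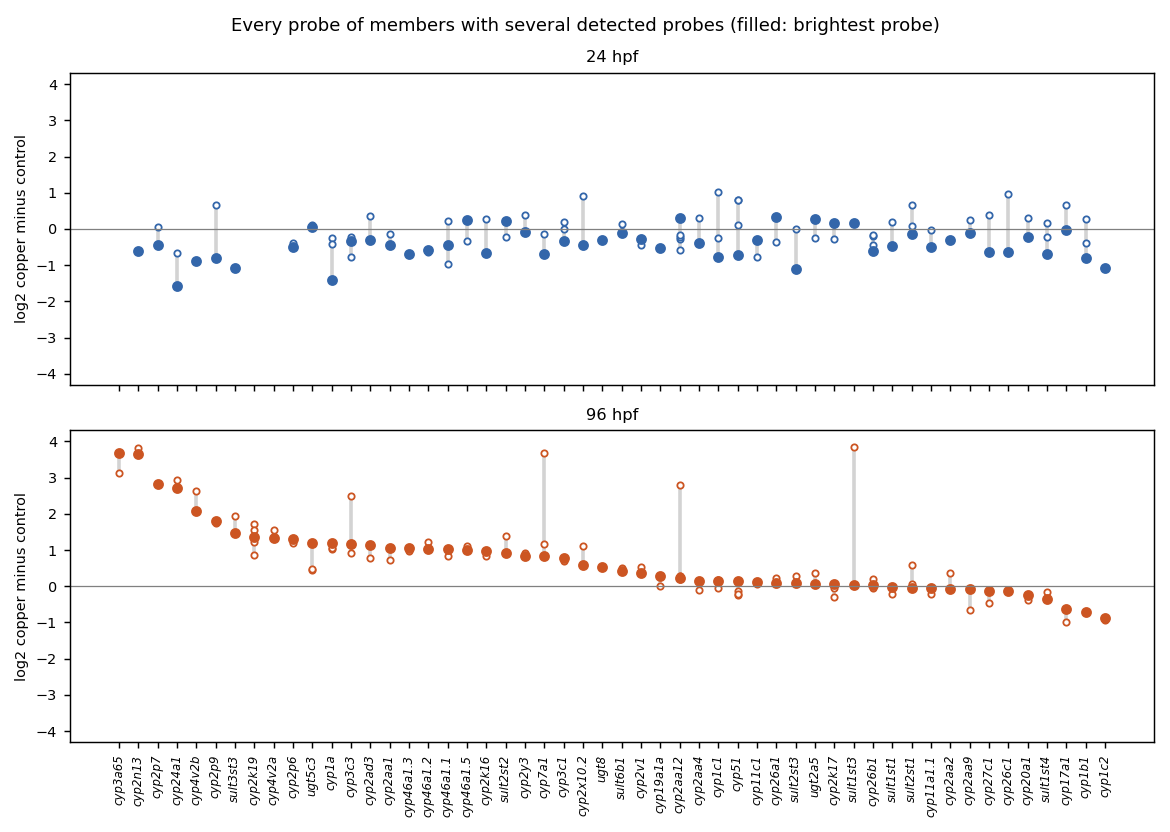
Copper minus control difference (log2) of every probe measured on both arrays, for the 52 members with several detected probes, at 24 hpf (top) and 96 hpf (bottom). Filled circles are the brightest probe of a gene, open circles its other probes, and grey lines join them. At 96 hpf most genes have their probes on the same side. The probes of cyp7a1, cyp2aa12 and sult1st3 all lie above 0 at 96 hpf but far apart in size. At 24 hpf 27 genes have probes on both sides of 0.

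Genes that work with these enzymes were counted against the same shares of named genes. Of those compared, 3 of 43 (6.98%) were 2-fold higher and 0 lower at 96 hpf, where 5.51% and 1.67% of named genes were. At 24 hpf 1 of 44 (2.27%) was higher and 4 (9.09%) lower, where 3.09% and 5.86% of named genes were. All 3 at 96 hpf, and papss1 and srd5a2a at 24 hpf, were past 2-fold under all 3 normalizations, while fdx1b, arnt2 and ahrra at 24 hpf were not. Of 8 listed P450 electron donor genes, 5 were probed and compared, and por, fdx1 and fdxr had no named probe. Of the 5, 0 passed 2-fold at 96 hpf and fdx1b, the ferredoxin of steroid synthesis, differed by -1.41 on the log2 scale at 24 hpf. None was called with age. Of 12 genes listed with the supply and use of UDP-glucuronic acid or the sulfate donor, papss1 was 1.20 higher at 24 hpf. In the same list papss2a was 1.21 higher at 96 hpf, and papss1 and papss2a both make the sulfate donor. With age ugp2a, papss2a and bpnt1 rose by 3.57, 3.62 and 3.64, and bpnt2 fell by 1.34. Among 7 xenobiotic receptor genes that passed, arnt2 and ahrra, a partner and a repressor of the aryl hydrocarbon receptor, differed by -1.48 and -1.23 at 24 hpf (-0.54 and -0.53 with normexp correction, the 2 ahrra probes lying on opposite sides of 0), and nr1h4, the bile acid receptor, was 1.25 higher at 96 hpf. With age ahr2 rose by 2.01 and nr1h4 by 3.67. Of 8 steroid partner genes, srd5a2a, a steroid 5-alpha-reductase, differed by -1.89 at 24 hpf and 2.39 at 96 hpf, and star, hsd11b2 and srd5a2a rose with age by 3.84, 3.82 and 3.24. Of 12 retinoid partner genes, 0 passed 2-fold at either age, crabp1a rose with age and rdh10b and rarab fell.

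Markers of organs that express these enzymes also differed between the 96 hpf arrays. Of 11 liver markers, 10 were above 0 in the array labelled copper and 3 were past 2-fold, and their summed signal was 412290 in the control and 504774 in the array labelled copper. The defining marker fabp10a was 2.29 higher on the log2 scale, ttr 3.98 and gc 2.43, while the median of the 11 was 0.41. The 1 below 0 was apobb.1 at -0.09. Of the summed liver signal, apobb.1 held 130854 and 122726, and apoa2 held 112012 and 122402. Over named genes, 5.51% were 2-fold higher at this age. Of 11 intestine markers, 9 were above 0 and 6 were past 2-fold, including vil1 at 2.39 and fabp2 at 1.61. The 2 below 0 were alpi.1 at -0.45 and apoa4b.2 at -0.22. The summed signal of the 11 was 154610 and 227296, of which apoa4b.1 held 102916 and 109466. All 7 exocrine pancreas markers were past 2-fold, with summed signals of 6760 and 178653. Of 5 radial glia markers 2 were past 2-fold (summed 202922 and 231992), and 0 of 3 interrenal markers (4861 and 5199) and 0 of 4 kidney markers (10931 and 14163) were. At 24 hpf the summed signals were 289027 and 299711 for liver, 214387 and 222166 for intestine, and 1766 and 1492 for exocrine pancreas. The median marker at 24 hpf differed by -0.27 on the log2 scale for liver, with 1 marker 2-fold lower, by -0.21 for intestine, with 2 lower, and by -0.55 for exocrine pancreas, with 1 lower, and in these lists 0 were 2-fold higher. The part of these organs in the enzyme differences was not tested.

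The authors' deposited table of changed probes listed 18 probes of 17 members at 24 hpf and 63 probes of 43 members at 96 hpf. All 63 are given as down in the authors' deposited table at 96 hpf, and at 24 hpf 13 are up and 5 down. Each of the 18 and each of the 63 has the opposite sign to the difference computed from the sample labels.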

How the data were processed

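Whole zebrafish embryos of 4 groups were read on 1 one-colour Agilent array each. Per the series' design text, labelling followed the Quick Amp protocol (version 5.7) and images were read in Agilent Feature Extraction 11.0.1.1. Each deposited file of an array gives background-subtracted spot intensity, not scaled between arrays per the file headers, and flags for spots well above background. The authors' deposited table lists probes with log2 fold changes, fold ratios, normalized log2 values, raw intensity and Zv9 coordinates, made in GeneSpring GX 11.5.1 per the design text.

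Here log2 intensity was averaged over the spots of a probe, without control and outlier-flagged spots (34 of 43603 probes lost), and quantile-normalized. A probe entered the comparison if at least 2 of the 4 arrays had it well above background (36026 probes). Symbols came from RefSeq accessions and a name table of assembly GRCz12tu, which holds 150 matching symbols and was used for names only. Each gene is represented by whichever detected probe is brightest on average. Where only 1 array of an age had a probe well above background, the value is a bound: the dim array is set to its own signal or to its lowest normalized signal well above background, whichever is higher. Age differences with a dim array at 24 hpf are bounded the same way. Probes dim on both arrays of an age were left out of its copper comparison. Copper differences carry no test and were counted past 2-fold. Age was fitted with copper over the 4 arrays in limma 3.58.1 (R 4.3.3; lmFit, eBayes with trend, Benjamini-Hochberg over all probes), tested on simulated data. Since the labels do not say that arrays held separate embryo pools, the p-values reflect differences among these arrays, which may be technical. The remaining steps ran in Python 3.11.15 with pandas 2.3.3 and numpy 2.4.6.

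The members, classes and gene lists were chosen with earlier results of these data known. Every member may be named. Values on each array are given for members past 2-fold with the same sign under the 3 normalizations, for the 10 largest age changes in each direction, and for a list of well-studied members. Alternatives were 75th-percentile scaling, normexp correction (offset 50, on median spot and background intensity), detection on all 4 arrays, no filter, the mean of detected probes, every detected probe past 2-fold, eBayes without trend, age alone, and age alone without each array.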

Additional observations from a re-analysis of the deposited data

Results flagged for a closer look

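Among the enzyme genes, 5 differed past 2-fold in opposite directions at the ages, and the difference between the ages was not tested, since each age holds 1 array per treatment. This is 5.49% of the 91 members compared at both ages, against 1.13% of 11916 named genes. The log2 difference, copper minus control as labelled, was -1.40 at 24 hpf and 1.18 at 96 hpf for cyp1a. It was -1.58 and 2.72 for cyp24a1, -1.09 and 1.46 for sult3st3, -1.05 and 2.41 for ugt5b4, and -1.11 and 1.16 for ugt5d1. Of these, cyp1a and cyp24a1 kept their 2-fold difference at both ages under all 3 normalizations, on the brightest probe. At 24 hpf each of the 5 genes passed 2-fold on 1 probe only. The other cyp1a probes differed there by -0.42 and -0.24 and the other cyp24a1 probe by -0.66. The other sult3st3 probe had a bound of 0, and ugt5b4 and ugt5d1 had 1 probe each. Over the 91 members, 56 (61.5%) were lower at 24 hpf and higher at 96 hpf, against 33.3% of named genes, 2 ran the other way, 14 were higher at both and 14 lower at both, and the rest had a bound of 0 at 24 hpf. None was past 2-fold on the same side at both ages.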

How the results depend on the processing

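No paired analysis was possible because each group held 1 array. At 24 hpf, the 1 member that was 2-fold higher became 3 when arrays were scaled by the 75th percentile and 0 with normexp correction. The 10 that were 2-fold lower became 3 and 3 under these, 6 with the mean of detected probes and 5 when every detected probe had to pass. Those 5 had 1 comparable probe each, so the last rule could not remove them. Of the 5 with several comparable probes, 0 met it. At 96 hpf the 38 higher members became 29 to 40 over 6 alternatives, and 0 were lower in each. The 38 members that rose with age became 20 with no filter, 14 to 40 without 1 array (14 without the 24 hpf and 23 without the 96 hpf array labelled copper), and 28 to 42 under the 6 remaining alternatives. The 9 that fell became 7 to 9 without 1 array and 7 to 11 otherwise. No member past 2-fold or past the age threshold reversed, though smaller differences did change sign between normalizations, such as those of cyp11c1 and cyp2p10 at 24 hpf and cyp11a1.1 at 96 hpf. The causes were not tested. Because quantile normalization gives each array the same distribution, it would hide a change shared by most genes. The lowest processed intensities are surrogate values, so little can be read from members near background.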
